A study of Rattus norvegicus with 88 samples.

Results

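Immediate early genes are transcribed within minutes of neuronal firing, without new protein synthesis, and their mRNA is soon lost again. A calcium signal that reaches the nucleus activates factors already bound at their promoters, among them CREB at cAMP response elements and serum response factor at CArG boxes. In the infralimbic region (IL) of the medial prefrontal cortex, studied for extinction learning and the control of drug seeking, their transcripts are widely used as markers of recently active neurons. The 8 genes described here were taken by identifier from a table of 17252 genes. They are Fos (ENSRNOG00000008015), Fosb (ENSRNOG00000046667), Junb (ENSRNOG00000042838), Egr1 (ENSRNOG00000019422), Egr2 (ENSRNOG00000000640), Nr4a1 (ENSRNOG00000007607), Arc (ENSRNOG00000043465) and Dusp1 (ENSRNOG00000003977). The list is defined by identifier and not by a threshold on a measured value. All 8 identifiers were in the table, and all 8 genes exceeded the minimum mean of 5 on the log2 scale that was set for comparisons of spread and correlation. The pairing of identifier and symbol could be checked here for 1 of the 8, Fosb; the other 7 symbols were taken as listed.

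RNA-Seq of polyadenylated RNA was performed on bilateral IL tissue dissected from frozen sections of Heterogeneous Stock (HS) rats, which are outbred and trace back to several inbred strains. The rats, 40 females and 41 males, were housed in groups and had received no behavioral or drug treatment, so that no group had received an experimental stimulus. The labels place 16 rats in rat batch 2, 25 in batch 3, 24 in batch 4, 1 in batch 5 and 15 in batch 6, and do not say what a rat batch shares. The study's methods give a similar mean age for males and females. Another 7 libraries, given as removed in the labels, were not used here.

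The value of a gene in a rat was the log2 of an adjusted count plus 1. Depth here means the reads assigned to the genes of the table, recovered from the spacing of the low values. It averaged 17870000 reads per library (SD 3770000, n = 81), with 5920000 in the shallowest and 31830000 in the deepest. The sample names of the table run in alphabetical order in 3 successive stretches, called column runs here, whose meaning no label gives. Run 1 held 22 rats, run 2 held 16 and run 3 held 43, and every rat of batches 4, 5 and 6 was in run 3. Only batches 2 and 3 were spread over more than 1 run, with 15 and 1 rats of batch 2 in runs 1 and 2, and 7, 15 and 3 rats of batch 3 in runs 1, 2 and 3.

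Promoter sequence was available for 6 of the 8 genes in the RefSeq table of assembly GRCr8. The 250 bases before the annotated start were searched on both strands for the CArG box, for the full cAMP response element TGACGTCA and for its 5-base core TGACG or CGTCA. The promoters of Fosb, Egr2, Nr4a1 and Dusp1 are shown, 5′ to 3′ on the strand of the gene, because they differ in which of these motifs they hold. Fosb and, with a smaller loading, Egr2 also lie on one side of the second component of co-variation described further on, and Nr4a1 and Dusp1 on the other. The other 2 genes with a sequence, Egr1 and Junb, have loadings of -0.04 and 0.15 there. Any relation between motifs and co-variation was not tested. Capitals mark the motifs found, of which the Fosb window held none.
Fosb (chr1:88089185-88089434, minus strand): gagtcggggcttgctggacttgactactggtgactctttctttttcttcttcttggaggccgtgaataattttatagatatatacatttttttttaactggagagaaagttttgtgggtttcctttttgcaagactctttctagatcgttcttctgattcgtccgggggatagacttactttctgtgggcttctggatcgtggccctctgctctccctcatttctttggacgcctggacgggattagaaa
Egr2 (chr20:21054442-21054691, minus strand): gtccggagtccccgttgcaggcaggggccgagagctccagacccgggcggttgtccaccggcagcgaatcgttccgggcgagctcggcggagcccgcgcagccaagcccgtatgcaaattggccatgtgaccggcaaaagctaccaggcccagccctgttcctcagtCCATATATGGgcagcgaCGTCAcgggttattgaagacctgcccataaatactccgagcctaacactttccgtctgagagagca
Nr4a1 (chr7:134259888-134260137, plus strand): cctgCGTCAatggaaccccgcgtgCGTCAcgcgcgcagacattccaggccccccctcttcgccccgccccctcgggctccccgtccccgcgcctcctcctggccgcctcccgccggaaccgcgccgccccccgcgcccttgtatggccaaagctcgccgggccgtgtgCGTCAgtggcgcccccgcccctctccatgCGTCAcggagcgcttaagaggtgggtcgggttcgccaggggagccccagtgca
Dusp1 (chr10:17184603-17184852, plus strand): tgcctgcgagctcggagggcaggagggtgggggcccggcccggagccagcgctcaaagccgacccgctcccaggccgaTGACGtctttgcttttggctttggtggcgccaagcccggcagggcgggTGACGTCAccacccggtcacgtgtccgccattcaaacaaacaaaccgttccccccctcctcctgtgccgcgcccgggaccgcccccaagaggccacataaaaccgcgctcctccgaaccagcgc

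The Egr2 promoter held 1 CArG box, which began at position -83 from the start, and 1 core motif. The Egr1 promoter, not printed, held 2 CArG boxes and 2 core motifs. A CArG box was found in 1.497% of the 33469 promoters searched, and in none of the other 4 members with a sequence. The Nr4a1 promoter held 4 core motifs, a number reached by 0.173% of all promoters. The Dusp1 promoter held the full element TGACGTCA, present in 1.59% of promoters, and 3 core motifs, of which 2 overlap within that element. Junb had 1 core motif and Fosb had none, and 18.2% of all promoters had at least 1. These are matches of letters within a fixed window before the annotated start and not measurements of binding. Motifs outside that window, or before any other start, were not searched.

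The transcripts of all 8 genes were detected in every rat, with at least 71 adjusted counts, and each varied several-fold between rats that had not been treated. Levels are compared between rats within a gene only, since no transcript lengths were applied. Fos and Fosb encode AP-1 subunits that pair with Jun proteins. The lowest, median and highest values of Fos over the 81 rats were 6.81, 9.96 and 11.22 on the log2 scale, that is 111, 997 and 2385 adjusted counts. Fosb had 7.43, 10.30 and 11.22, or 171, 1259 and 2378 adjusted counts. Junb, a Jun partner within AP-1, had the smaller range of 9.40, 11.31 and 12.35. For each AP-1 gene the median lay closer to the highest rat than to the lowest, so that the tail was on the low side.

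Egr1 and Egr2 encode zinc finger transcription factors. Egr1 had values of 10.33, 12.17 and 13.33, and its highest rat stood 7.99-fold above its lowest. Egr2 had values of 6.17, 9.20 and 10.79, with 71 adjusted counts in the lowest rat and 1765 in the highest, a 24.9-fold range. These 2 related genes therefore covered very different ranges in the same rats. Nr4a1, an orphan nuclear receptor, had 9.63, 11.22 and 12.72.

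Arc encodes a protein that acts at synapses and takes part in the removal of AMPA receptors. Its values of 8.36, 11.73 and 13.31 covered 327 to 10152 adjusted counts, and this 31.05-fold range was the widest of the 8. Its lower end rests on 1 rat, with 501 in the next lowest, while the 2 lowest rats for Egr2 had 71 and 72. Dusp1 encodes a phosphatase that inactivates MAP kinases and so acts as a feedback inhibitor. Its values were 8.34, 10.57 and 12.17. The lowest rat for Fos, Fosb, Junb, Egr1, Egr2, Nr4a1, Arc and Dusp1 was the same animal, a male of batch 6 with a recovered depth of 15330000 reads.

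Rats that were extreme for 1 gene tended to be extreme for the others. Taking the 10 lowest rats for each gene gave 17 different rats, of which 5 were among the 10 lowest for all 8. Of these 5 rats, 4 came from batch 6 and 1 from batch 3. The 10 highest rats for each gene were 19 different animals, of which 4 were among the 10 highest for all 8. No rat was in both sets, and no rat of batch 2 was among the 10 lowest for any of the genes.

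**Figure D1:**
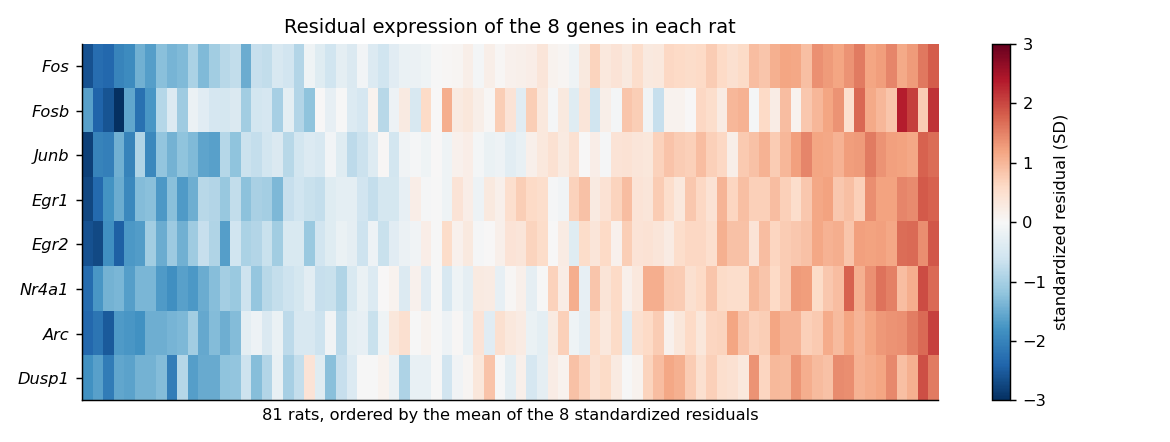
Each column is 1 of the 81 rats and each row 1 of the 8 genes; color gives the residual after rat batch, column run and sex, in SD of that gene, from -3 (blue) to 3 (red). Columns are ordered by the mean of the 8 rows, and the 8 rows pass from blue to red together from the lowest rats on the left to the highest on the right, with Fosb the row that departs most often.

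Spread between rats was measured as the SD of residuals from a linear model with rat batch, column run and sex. Egr2 had the largest residual SD of the 8 genes, 1.01 ± 0.09 (jackknife SE, n = 81), followed by Arc at 0.92 ± 0.07 and Fos at 0.92 ± 0.08. Dusp1 had 0.75 ± 0.05, Nr4a1 0.68 ± 0.05, Fosb 0.66 ± 0.07, Junb 0.61 ± 0.05 and Egr1 0.58 ± 0.05. Neighbors in this order differed by less than the sum of their SEs, except for Fos and Dusp1. These are SEs of single genes measured in the same rats, and the differences in spread between genes were not tested. A residual of 1 SD corresponded to a 2.01-fold difference for Egr2 and to a 1.495-fold difference for Egr1.

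Against other genes this spread was high. The median residual SD of the 13048 genes above the minimum level was 0.18, and the 8 genes lay between percentiles 97.7 for Egr1 and 99.2 for Egr2. Among genes whose mean level was within 0.5 log2 units of their own, each lay above percentile 99.6. For Arc, the genes of similar level had a median SD of 0.12. Counting error alone gave an SD between 0.024 for Egr1 and 0.076 for Egr2, at most 0.565% of the residual variance of any of them, since even the fewest reads, for Egr2 in 1 rat, came to 56.8. This counting error covers the sampling of reads only. The residuals of all 8 genes were skewed to the low side, with a skewness from -0.24 for Nr4a1 to -0.65 for Egr2.

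**Figure D2:**
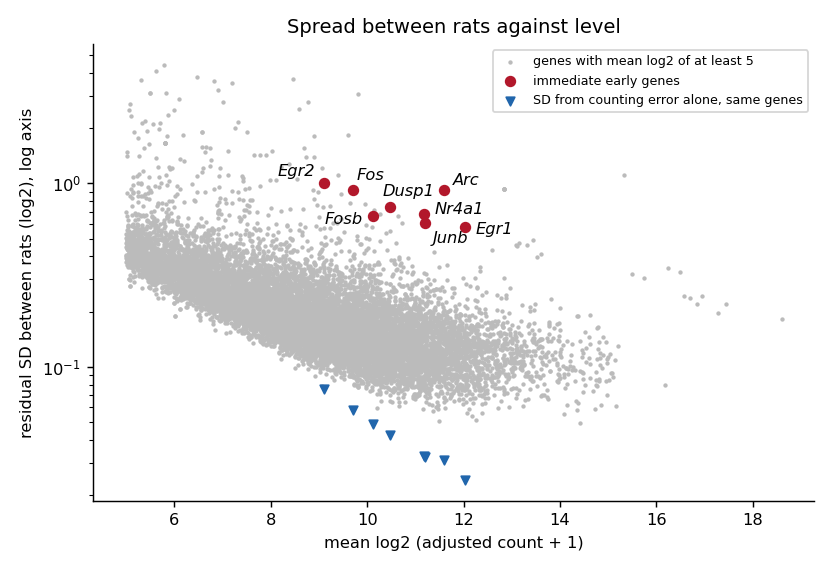
Residual SD between rats (log2, vertical log axis) against mean log2 value for 13048 genes (gray), with the 8 immediate early genes in red and the SD that counting error alone would give them as blue triangles. The red points lie between 0.58 (Egr1) and 1.01 (Egr2), along the upper edge of the gray cloud, and the triangles lie at or below 0.076.

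The 8 genes rose and fell together across rats. All 28 pairs were correlated, with Pearson's r of residuals from 0.684 for Fosb and Dusp1 to 0.957 for Fos and Junb, and a median of 0.910 ± 0.018 (jackknife SE, n = 81). Spearman's rho ranged from 0.658 to 0.953. In a two-sided permutation test that exchanged rats within batch, run and sex, every pair gave p = 1e-05 for both coefficients, the smallest value that 100000 permutations can give, and the Benjamini-Hochberg adjusted value over the 28 pairs was also 1e-05. Without the 2 rats farthest from the median of the first gene of each pair, r ranged from 0.650 to 0.950. Fos and Junb had the highest r at 0.957 ± 0.011 (jackknife SE). Egr1 and Egr2 at 0.956 ± 0.012 and Nr4a1 and Dusp1 at 0.951 ± 0.011 lay within these SEs of it.

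The co-variation was present inside each run and each batch. The median r over the 28 pairs was 0.922 in the 22 rats of run 1, 0.852 in the 16 rats of run 2 and 0.927 in the 43 rats of run 3, with a lowest single value of 0.675. By rat batch the median was 0.918 in batch 2, 0.908 in batch 3, 0.884 in batch 4 and 0.962 in batch 6. The lowest r within a batch was 0.576, in batch 4, while in batch 6 no pair was below 0.895. These medians share genes and rats and were not compared by a test.

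**Figure D3:**
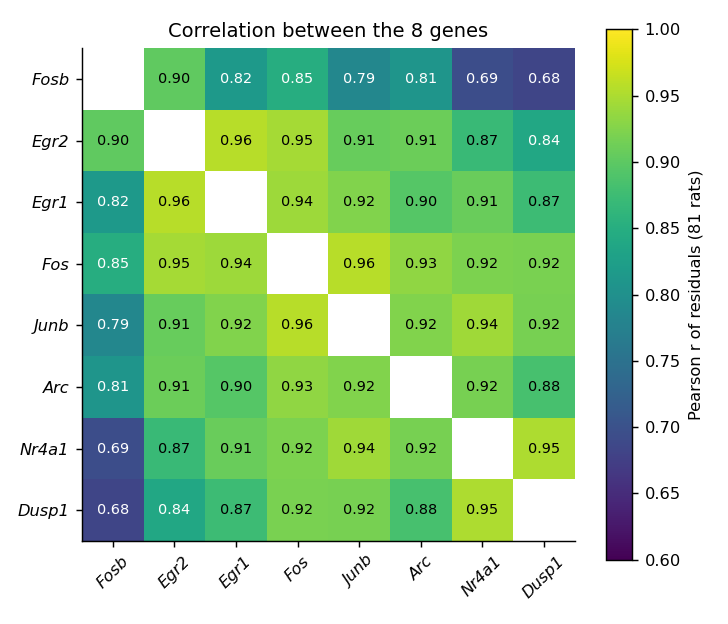
Pearson's r between residuals of each pair of the 8 genes over 81 rats, colored from 0.6 to 1 and printed in each cell. The row of Fosb falls from 0.90 with Egr2 to 0.69 with Nr4a1 and 0.68 with Dusp1, while Nr4a1 and Dusp1 stand at 0.95 with each other.

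A single component of the standardized residuals accounted for 90.1% ± 1.485 (jackknife SE) of the variance of the 8 genes, with loadings between 0.32 for Fosb and 0.37 for Fos. The second component held 5.44% ± 0.96 and set Fosb, at a loading of -0.74, and Egr2, at -0.29, against Dusp1 at 0.43 and Nr4a1 at 0.40. Fosb followed Egr2 with r of 0.903 and Nr4a1 with r of 0.694, a difference of 0.209 ± 0.040 (jackknife SE). Fosb also followed Fos, its AP-1 relative, more closely than Dusp1, by 0.166 ± 0.033. Nr4a1 and Dusp1 had r of 0.951 with each other. Most of the spread was thus common to all 8, and the largest remaining part separated Fosb from Nr4a1 and Dusp1.

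**Figure D4:**
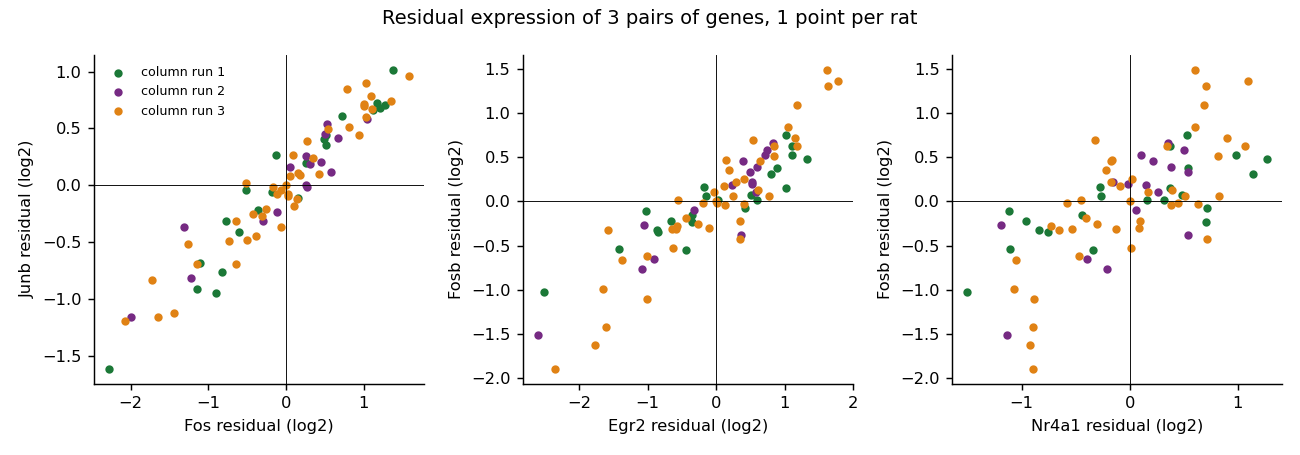
Residuals (log2) of 3 pairs of genes, 1 point per rat colored by column run; the panels show Junb against Fos, Fosb against Egr2 and Fosb against Nr4a1. The points follow a narrow line for Fos and Junb (r = 0.957), a wider one for Egr2 and Fosb (r = 0.903) and scatter most for Nr4a1 and Fosb (r = 0.694), with rats of all 3 runs along each.

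The genes did not move by equal amounts. A rise of 1 log2 unit in Fos went with 1.04 ± 0.05 units in Egr2 and 0.94 ± 0.04 in Arc (slope ± jackknife SE, n = 81). It went with 0.75 ± 0.04 units in Dusp1, 0.68 ± 0.04 in Nr4a1, 0.63 ± 0.02 in Junb, 0.61 ± 0.06 in Fosb and 0.60 ± 0.03 in Egr1. In rats with doubled Fos, Egr2 was therefore 2.06-fold and Egr1 1.51-fold higher along the fitted line. A slope from such a regression falls where the correlation is weaker, as for Fosb.

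For every one of the 8 genes, the most strongly correlated of 13047 genes was another of the 8. The partners were Junb for Fos, Fos for Junb, Egr2 for Fosb and Egr1, Egr1 for Egr2, Dusp1 for Nr4a1, Nr4a1 for Dusp1 and Fos for Arc. The remaining members ranked within the top 12 for Egr2 and within the top 34 for Fosb. Among the 13040 other genes, 9 had r above 0.8 with the mean of the 8 standardized residuals, 28 had r above 0.7 and 93 above 0.5, while 6 were below -0.5. The median over these genes was -0.03. The 2 closest were ENSRNOG00000023896 at 0.924 and ENSRNOG00000033433 at 0.899, and the 2 most opposed were ENSRNOG00000011716 at -0.570 and ENSRNOG00000020169 at -0.513. The files do not pair these identifiers with names.

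Other activity-regulated genes were taken from a list of 54 symbols, of which 6 could be paired with an identifier. Nr4a2, a nuclear receptor related to Nr4a1, had r of 0.75 and rho of 0.77 with the mean of the 8 genes. Gadd45b, which acts in stress responses and DNA demethylation, had r of 0.66 and rho of 0.57, and Sgk1, a kinase induced by glucocorticoids, had r of 0.41 and rho of 0.43. Mef2c, a transcription factor that acts upstream of activity-regulated genes, had r of 0.15, Nptx2, a secreted synaptic pentraxin, had 0.03, and Inhba, a subunit of activin, had -0.08. The 6 genes of this list therefore ranged from a close relation with the immediate early genes to none that could be seen.

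Among the rat batches, batch 6 had the lowest mean of the 4 batches with replicates for each of the 8 genes. A moderated F-test of the batches in limma, with sex as a covariate and without the lone rat of batch 5 (n = 80), called 8 of 8 genes at an adjusted p under 0.05, beside 57.6% of all 17252 genes. Adjusted p-values ran from 2.73e-06 for Fosb and 0.000419 for Egr1 to 0.0123 for Junb and 0.0384 for Fos. With most genes called, and with the 8 genes so closely correlated, a count of 8 of 8 says little about these genes in particular. Without batch 6, 1 of 8 was called, Fosb, beside 49% of all genes.

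For Fosb the lowest, median and highest values were 9.89, 10.53 and 10.96 in the 16 rats of batch 2, and 8.87, 10.23 and 11.20 in the 25 rats of batch 3. They were 9.40, 10.24 and 11.22 in the 24 rats of batch 4, and 7.43, 9.50 and 10.98 in the 15 rats of batch 6. The batches overlapped at the high end, and the lowest rats of batch 6 lay below every rat of the other batches. The SD of Fosb was 1.20 in batch 6, against 0.31, 0.60 and 0.49 in batches 2, 3 and 4. Batch 6 also had the largest SD of these batches for Fos, Junb, Egr1, Egr2, Arc and Dusp1, but not for Nr4a1, with 0.70 against 0.79 in batch 2. The model assumes 1 spread per gene.

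For Egr2 the 3 values were 7.92, 9.29 and 10.68 in batch 2, 6.83, 9.36 and 10.48 in batch 3, and 7.43, 9.56 and 10.79 in batch 4. In batch 6 they were 6.17, 8.07 and 10.17. Fos, in the same order of batches, had medians of 9.82, 9.96, 10.04 and 9.22, and Arc had 11.99, 11.71, 11.90 and 10.87. In each of these genes batch 6 had the lowest median and also the lowest maximum, although its highest rat lay above the medians of the others. The highest values, in the same order, were 11.18, 11.11, 11.22 and 10.48 for Fos and 13.31, 12.86, 13.05 and 12.36 for Arc. The lone rat of batch 5 had 10.72 for Fos and 12.62 for Arc, and enters no comparison.

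Between pairs of batches, 8 of 8 genes were lower in batch 6 than in batch 2, beside 19% of all genes called lower and 40.8% called in either direction. The differences on the log2 scale ran from -0.76 ± 0.21 (SE) for Junb (limma adjusted p = 0.00246) to -1.41 ± 0.35 for Egr2 (limma adjusted p = 0.000718), and Fosb had -1.37 ± 0.23. Against batch 3, 7 of 8 were lower, beside 22.4% of all genes called lower, with Fos at -0.53 ± 0.29 the exception (limma adjusted p = 0.124). Against batch 4, which shares run 3 with batch 6, 2 of 8 were called, beside 1.2% of all genes called lower and 3.53% in either direction. These were Fosb at -1.01 ± 0.21 (limma adjusted p = 0.00319) and Egr2 at -1.06 ± 0.32 (limma adjusted p = 0.0402). The median difference of the 8 genes against batch 4 was -0.65, beside 0.02 over all genes. All 8 were lower in batch 6 than in each of the other 3 batches under 5 scalings of the values.

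None of the 8 genes was called by limma between batches 2 and 3 (0.962% of all genes called), between batches 2 and 4 (37.9%) or between batches 3 and 4 (47.1%). At an unadjusted p under 0.05 the counts were 2, 2 and 0 of 8, beside 2803, 7856 and 9092 of all 17252 genes. The median difference of the 8 genes between batches 4 and 3 was 0.02, beside -0.0004 over all genes. In the table as a whole, 8122 genes were called between batches 3 and 4. The 8 genes varied more between rats than most genes, so small shifts were harder to call in them. They are also so closely correlated that 0 of 8 is not 8 independent results.

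**Figure D5:**
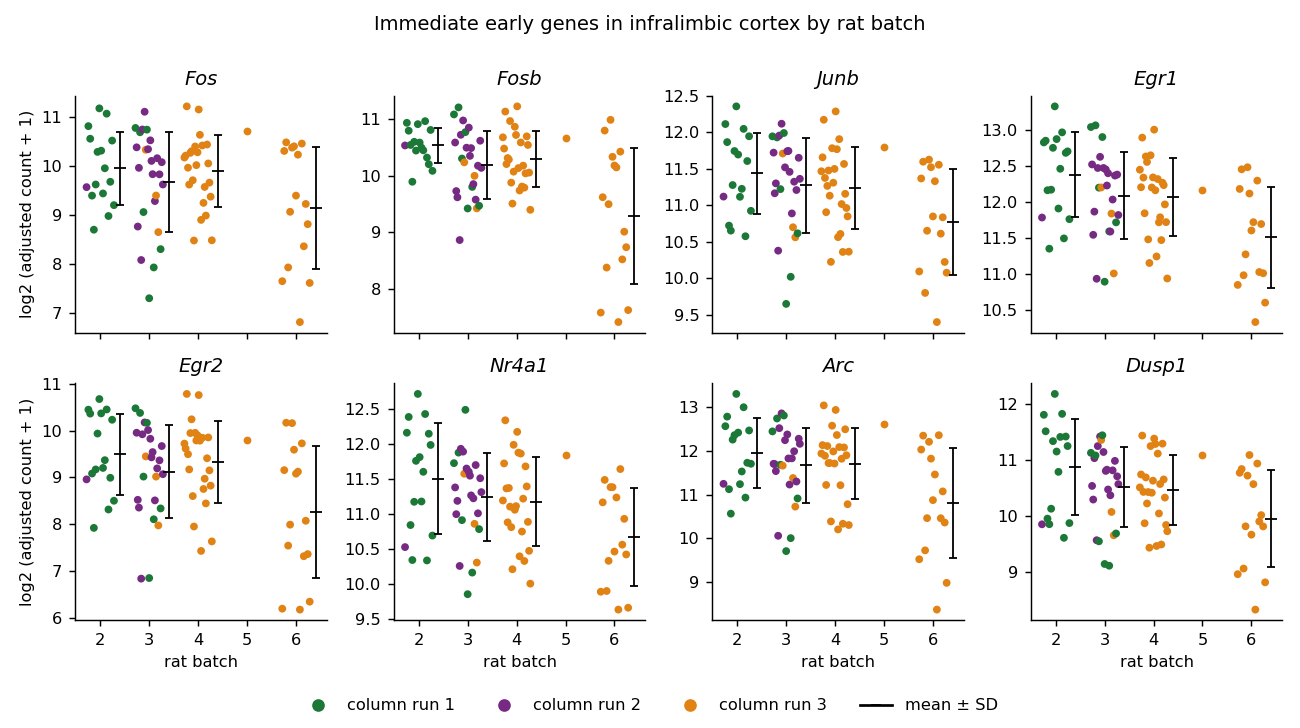
Log2 values of the 8 genes in each of 81 rats by rat batch, colored by column run, with mean ± SD beside each batch of more than 1 rat. Batch 6 has the lowest mean in every panel and its rats extend below the others, to 7.43 for Fosb and 6.17 for Egr2, while its upper rats overlap batches 2, 3 and 4.

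Little can be said of column run. With rat batch and sex in the model, limma called 0 of 8 genes between runs, beside 16.8% of all genes, and adjusted p-values lay between 0.587 and 0.961. None had an unadjusted p under 0.05. Within the 25 rats of batch 3, limma again called 0 of 8, beside 16.9% of all genes, also with 0 of 8 under an unadjusted p of 0.05. Fos averaged 9.26 ± 1.481 (SD) in the 7 rats of batch 3 in run 1, 9.92 ± 0.77 in the 15 in run 2 and 9.46 ± 0.84 in the 3 in run 3. Run 3 could be set against the other runs only through these 3 rats. The same model recovered none of the shifts of 1.5 residual SD that were added to run 3 in simulated data. The absence of calls therefore does not show that the runs are alike for these genes.

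As a share of variance, run added 0.14% (Egr2) to 1.94% (Fos) once batch and sex were in the model, against a median of 4.16% over the 13048 genes above the minimum level. Rat batch added 8.50% (Nr4a1) to 21.4% (Fosb) once run and sex were in, against a median of 4.55%. All 3 terms together accounted for 17.6% of the variance of Dusp1 and 36.3% of that of Fosb, against a median of 26.9%. For each of the 8 genes, most of the variance therefore lay between rats of the same batch, run and sex.

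With run in the model, limma called the batches different for 1 of 8 genes, Fosb (adjusted p = 0.0110), beside 2.76% of all genes, and 7 of 8 had an unadjusted p under 0.05, beside 16.3% of all genes. The eighth was Nr4a1, with an unadjusted p of 0.0874 in limma. Inside run 3 alone, with the 39 rats of batches 4 and 6, 1 of 8 was called, Fosb at -1.01 ± 0.24 (limma adjusted p = 0.0166), beside 3.46% of all genes. The difference for Egr2, -1.06 ± 0.32, was the same in size as in the fit over all batches but was not called in these 39 rats (limma adjusted p = 0.0524). Inside run 1, batch 3 was lower than batch 2 by values from -0.44 ± 0.32 for Egr1 to -1.14 ± 0.48 for Fos. None of them was called by limma (adjusted p = 1.00), beside 0 of all genes. In that fit 3 of 8 had an unadjusted p under 0.05, beside 784 of all 17252 genes. The median difference of the 8 there was -0.79, beside 0.01 over all genes. The call for Fosb was lost with inverse normal values (adjusted p = 0.112) and without batch 4 (0.501) or batch 6 (0.818).

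Cell type markers were examined beside the batches, since in bulk tissue fewer cells of a type and less RNA per cell cannot be told apart. Of 40 listed marker symbols, 6 could be paired with an identifier, and all 6 were above 0 in every rat. In batch 6 against batch 2, limma called the interneuron transporter Slc32a1 at -0.46 ± 0.06, the blood gene Hbb at -0.81 ± 0.27, the astrocyte gene Aldh1l1 at -0.19 ± 0.07 and the microglial gene P2ry12 at 0.30 ± 0.12, that is 4 of 6 beside 40.8% of all genes. Against batch 4, limma called 0 of the 6 markers, beside 3.53% of all genes, and 1 of the 6, the interneuron peptide gene Vip at -0.13 ± 0.06, had an unadjusted p under 0.05. Slc32a1 differed there by -0.02 ± 0.05. The r of the markers with the mean of the 8 genes was highest for Vip at 0.36 and for the excitatory neuron gene Neurod6 at 0.23, and lowest for Aldh1l1 at -0.15. The part of cell composition in the batch differences was not tested beyond these values.

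Of the other activity-regulated genes, limma called 4 of 6 between the batches, Nptx2, Sgk1, Gadd45b and Nr4a2, with adjusted p-values of 1.40e-07, 2.06e-06, 4.64e-06 and 0.00217, beside 57.6% of all genes. Inhba and Mef2c were not called (adjusted p of 0.127 and 0.353). Against batch 4, batch 6 was lower for Nr4a2 at -0.61 ± 0.18, for Gadd45b at -0.57 ± 0.14 and for Nptx2 at -0.44 ± 0.12, with limma adjusted p-values of 0.0428, 0.0139 and 0.0274, that is 3 of 6 beside 3.53% of all genes. Sgk1 differed by -0.21 ± 0.11 and was not called there. Nptx2 was thus lower in batch 6 although it did not follow the 8 genes from rat to rat.

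Males had lower values than females for all 8 genes, but none passed the test. Fos had a lowest, median and highest value of 7.29, 10.29 and 11.22 in the 40 females and 6.81, 9.62 and 11.18 in the 41 males. Egr2 had 6.19, 9.76 and 10.79 in females and 6.17, 9.07 and 10.68 in males. The sexes overlapped over nearly the whole range of both genes. With rat batch as a covariate, male minus female was -0.60 ± 0.22 (SE) for Egr2, -0.50 ± 0.20 for Fos, -0.45 ± 0.20 for Arc and -0.44 ± 0.15 for Fosb. It was -0.36 ± 0.13 for Egr1, -0.34 ± 0.13 for Junb, -0.25 ± 0.16 for Dusp1 and -0.24 ± 0.15 for Nr4a1.

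The limma test with adjustment over all 17252 genes called 0 of 8 between the sexes, beside 0.197% of all genes, with adjusted p-values from 0.305 for Fosb to 0.762 for Dusp1. At an unadjusted p under 0.05 there were 6 of 8, beside 7.76% of all genes, and since the 8 genes are so closely correlated these are not 6 independent results. The median difference of the 8 was -0.40, beside 0.01 over all genes. Inside runs 1 and 3 all 8 were lower in males, with Fos at -0.81 and -0.63. Inside run 2 the differences ran from -0.14 for Fos to 0.05 for Egr2, and 3 of them, for Egr1, Egr2 and Nr4a1, were above 0. By rat batch, Fos differed by -0.17, -0.54, -0.52 and -0.66 in batches 2, 3, 4 and 6. A test of whether the sex difference varied between batches called 0 of 8 in limma, with an adjusted p of 0.996 for each, beside 0 of all genes, with 0 of 8 and 531 of all genes at an unadjusted p under 0.05.

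Depth did not move with these genes to a detectable extent. Over the 81 rats, Pearson's r between the residuals and the recovered depth lay between 0.012 for Junb and 0.126 for Arc, and Spearman's rho between -0.070 and 0.026. In two-sided permutation tests of the 8 relations, the adjusted p was 0.911 for each Pearson coefficient and 0.920 for each Spearman coefficient. Without the 2 rats farthest from the median depth, r lay between -0.058 and 0.031.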

How the data were processed

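The authors trimmed single-end reads with cutadapt, estimated counts per gene with RSEM against the Ensembl rat transcriptome (Rnor_6.0 among the submitters' notes, which also name DESeq2), adjusted them between libraries and deposited log2 values of the adjusted count plus 1. Versions are not given in the sources used here. The deposited values are rounded and adjusted, so no count model was used; RSEM splits reads shared by similar genes by estimated shares. Depth was recovered from the spacing of low values.

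Titles tied every column to 1 rat. limma 3.58.1 (R 4.3.3) was fitted to all 17252 genes using eBayes with trend, with Benjamini-Hochberg adjustment over these genes (threshold 0.05). Each rat gave 1 library, and relatedness of rats was not modelled. Residuals were taken from rat batch, column run and sex; SEs of spread and correlations are jackknife SEs over rats. The fits were tested on simulated data, in which shifts between sexes were recovered in full, most shifts between rat batches were recovered both with and without run in the model, and shifts of run 3 were not recovered.

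The genes and lists were chosen with earlier results of these data known. Named genes were the 8 members, the list genes with an identifier and, by highest and lowest correlation with the mean of the members, at most 2 other identifiers at each end. Symbols of list genes came from identifier and symbol pairs in the study's supplementary tables, chosen there for other properties, so that most list genes were not analysed here. The CArG box was searched by its usual consensus.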

Additional observations from a re-analysis of the deposited data

How the results depend on the processing

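Other scalings (a pseudocount of 10 in place of 1, quantile normalization, median centring, inverse normal values), depth as a covariate and leaving out single batches or the library of lowest depth were tried. The count of the 8 genes called between rat batches fell from 8 to 1 without batch 6, beside 49.0% of all genes. It was 6 without batch 2 (53.8% of all genes) and 7 without batch 4 (51.0%) or with inverse normal values (61.6%). It stayed at 8 in the other alternatives, beside 41.9% to 69.6% of the genes tested. For batches given run it went from 1 to 0 with inverse normal values, without batch 4, without batch 6 and within run 1. In these 4 settings 1.64%, 0.829%, 0% and 0% of all genes were called. Without batch 3 it went to 2, beside 2.99% of all genes. Fewer rats enter each of these settings except inverse normal values. Inverse normal values for single pairs of batches were added after seeing the data. With them, batch 6 against 4 gave 1 call in place of 2, beside 3.03% of all genes. Batch 4 against 2 gave 1 in place of 0, beside 38.6% of all genes. None of the 8 genes was called between runs, between the sexes or in the interaction under any alternative tried.

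The median residual SD of 0.71 became 0.93 with inverse normal values, which are on another scale, 0.79 without covariates, 0.85 within run 1 and 0.55 within run 2. The first component held 92.0% within run 1 and 86.7% within run 2, where the median r was 0.852. All 28 pairs stayed past the threshold in every alternative with a test. Sex differences stayed below 0 in 141 of 144 alternatives, which share correlated genes and rats and are not independent. Those for Egr1, Egr2 and Nr4a1 reversed within run 2, a setting added after seeing the data, to 0.0057, 0.053 and 0.0050. At an unadjusted limma p under 0.05 for sex, 6 of 8 in the main fit (1339 of all genes) became 1 without batch 4 (916). The count was 4 without batch 3 (1695) or a batch term (1486), and 5 without batch 6 (947). Within runs 1, 2 and 3 it was 1, 0 and 6 (637, 1014 and 1619). It stayed at 6 in the other alternatives. With the first 5 expression components as covariates, also added later, r with the 8 genes reversed to -0.137 for Mef2c, -0.0093 for Neurod6 and -0.111 for Slc32a1. The cause of these changes was not tested.

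No paired analysis was possible because the labels tie no female to a male, and the replicate numbers here are only names. Rat batch and column run overlap in batches 2 and 3 only, and batches 4 and 6 lie in run 3 alone, which limits the comparison of run 3 with the others to 3 rats of batch 3. Depth limits these genes little, with at least 56.8 reads per rat and gene.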
